A study of Rattus norvegicus with 6 samples.

Results

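A set of 10 immediate early genes of mechanical loading, of the 32883 genes in the table, was followed in RNA sequencing libraries from rat bone: Fos, Fosb, Fosl1, Jun, Junb, Egr1, Egr2, Nr4a1, Atf3 and Ptgs2. They were taken from the table by Ensembl identifier, and the symbols are those of the gene list that gave the identifiers. No table used here pairs rat Ensembl identifiers with symbols, so this pairing was not checked, although all 10 symbols are rat genes in RefSeq. The study set 3 exercised rats against 3 control rats, all labelled WT and, per the series title, adult. The exercised rats ran on a treadmill at moderate intensity, and the controls are labelled as having no treatment. By the labels, total RNA came from bone, with osteocytes named as the cell type. Strain, sex, bone site, length of training and the time from the last run to tissue collection are not stated in the sources used. Because 0 of the 32883 identifiers matched a symbol in the gene table used here, markers of osteocytes, marrow or muscle could not be read, and the labelled cell type was not checked.

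Immediate early genes are switched on within minutes of a stimulus, without new protein being made, and most of their transcripts decay quickly. In bone, strain and fluid flow over osteocytes and osteoblasts open calcium channels and activate MAP kinases, which act on the serum response factor and CREB at the promoters of Fos, Egr1 and related genes. The Fos and Jun proteins pair to form AP-1, a transcription factor of bone-forming cells, and Ptgs2 makes the prostaglandins that bone cells release on loading.

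For 7 of the 10 genes RefSeq's promoter table for assembly GRCr8 held an entry, and 4 promoters are shown because they differ in the motifs they hold: Egr2 with a CArG box and a CREB half-site, Junb and Nr4a1 with half-sites, and Ptgs2 with neither. Each is the 250 bases before 1 annotated transcript start, 5′ to 3′. Egr2 lies on the minus strand at chr20:21054442-21054691, Junb on the plus strand at chr19:40080876-40081125, Nr4a1 on the plus strand at chr7:134259888-134260137 and Ptgs2 on the plus strand at chr13:64713813-64714062. Capitals mark the CArG box, the sequence bound by serum response factor, and the CREB half-site TGACG or its reverse complement CGTCA; no capitals mean that neither was found in the window.
Egr2: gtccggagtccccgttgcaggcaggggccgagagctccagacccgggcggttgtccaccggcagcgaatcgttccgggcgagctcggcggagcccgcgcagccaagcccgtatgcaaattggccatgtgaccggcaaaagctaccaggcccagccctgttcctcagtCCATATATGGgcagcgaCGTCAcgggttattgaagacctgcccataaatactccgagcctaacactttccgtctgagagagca
Junb: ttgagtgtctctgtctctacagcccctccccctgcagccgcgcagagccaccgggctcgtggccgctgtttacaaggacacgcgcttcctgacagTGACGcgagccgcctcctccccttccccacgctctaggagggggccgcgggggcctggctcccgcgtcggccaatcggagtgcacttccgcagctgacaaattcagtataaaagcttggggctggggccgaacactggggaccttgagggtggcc
Nr4a1: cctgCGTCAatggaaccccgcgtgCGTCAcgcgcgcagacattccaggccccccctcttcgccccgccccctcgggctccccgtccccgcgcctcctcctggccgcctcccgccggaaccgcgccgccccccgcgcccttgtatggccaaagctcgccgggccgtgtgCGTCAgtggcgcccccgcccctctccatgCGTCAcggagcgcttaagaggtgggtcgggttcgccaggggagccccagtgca
Ptgs2: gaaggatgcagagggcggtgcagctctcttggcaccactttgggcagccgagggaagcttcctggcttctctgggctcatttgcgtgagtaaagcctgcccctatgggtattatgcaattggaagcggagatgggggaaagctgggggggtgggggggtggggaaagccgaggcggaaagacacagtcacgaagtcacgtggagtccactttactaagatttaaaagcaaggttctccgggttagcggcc

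Both strands of the 7 windows were searched. A CArG box was found in 2 of them, Egr1 and Egr2, against 1.5% of all 33469 promoter windows of that length in the table. The layout was the same in both: a CArG box began 83 bases and a CREB half-site 66 bases before the start in Egr1 and in Egr2, without overlap. Egr1 held a second CArG box at 105 bases and a second half-site at 135 bases. The half-site was present in 5 of the 7 windows (Fosl1, Junb, Egr1, Egr2 and Nr4a1), against 18.2% of all windows. Nr4a1 had 4 half-site matches, at 246, 226, 82 and 53 bases, where 0.813% of all windows had 3 or more. The AP-1 motif TGANTCA was in 0 of the 7 windows (6.34% of all) and the EGR motif GCGNGGGCG in Nr4a1 alone (4.29% of all), at 73 bases and apart from the half-sites. These are letter matches in a short window of 1 start per gene. The 5 windows with a half-site held 62% to 74.8% G and C, and those without it 43.6% (Fosb) and 57.2% (Ptgs2). The shares over all windows were not matched for G and C, and the part of base content in these counts was not tested. Fos, Jun and Atf3 were not searched.

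The libraries held 14276864 to 15660240 counts in exercised bone and 14056743 to 18126584 in control bone. They spread along a first principal component that held 65.3% of the variance of log2 CPM (CPM, counts scaled to library size). Exercised replicates 1, 2 and 3 scored -3.46, 1.52 and 117 on it, and control replicates 1, 2 and 3 scored -41.5, 52.7 and -126. The top 10 genes by abundance made up 25.4%, 22% and 16.6% of counts in the exercised libraries and 24.9%, 17.4% and 27.5% in the controls. Exercised replicate 3 and control replicate 3 are the ends of the first component, and fold differences that rest on them are given with and without them. Spreads, deviations and library orders were taken over all 6 libraries only.

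None of the 10 genes passed the test for a difference between exercised and control bone after adjustment over all genes, and they did not move as 1 block. Atf3 came nearest, with all 3 exercised libraries below all 3 controls. All 10 passed the filter on low counts. With the quasi-likelihood test of edgeR and Benjamini-Hochberg adjustment over all 14495 tested genes, 0 of the 10 reached the adjusted p threshold of 0.05, and the share of all tested genes that did was also 0%. DESeq2 also called 0 of the 10, against 0.00484% of the genes it adjusted. At an unadjusted p under 0.05 there was 1 of the 10, Atf3, against 1.7% of all tested genes (247 genes). A fitted log2 fold difference below 0 was found in 6 of the 10 genes, against 49.2% of all tested genes. The median over the 10 was -0.42, against 0.0092 over all tested genes. That median rested on single libraries: it was -0.87 without exercised replicate 1 and -0.027 without exercised replicate 3. Leaving out control replicate 1, 2 or 3 gave -0.64, -0.039 and -0.014, in that order, and leaving out exercised replicate 2 gave -0.44. Without control replicate 3 and exercised replicate 3 together it was 0.013. Levels below are CPM scaled by TMM factors (trimmed mean of M-values), which compare 1 gene between libraries and not 1 gene with another. In whole tissue, fewer cells of a type and less RNA per cell cannot be told apart.

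**Figure D1:**
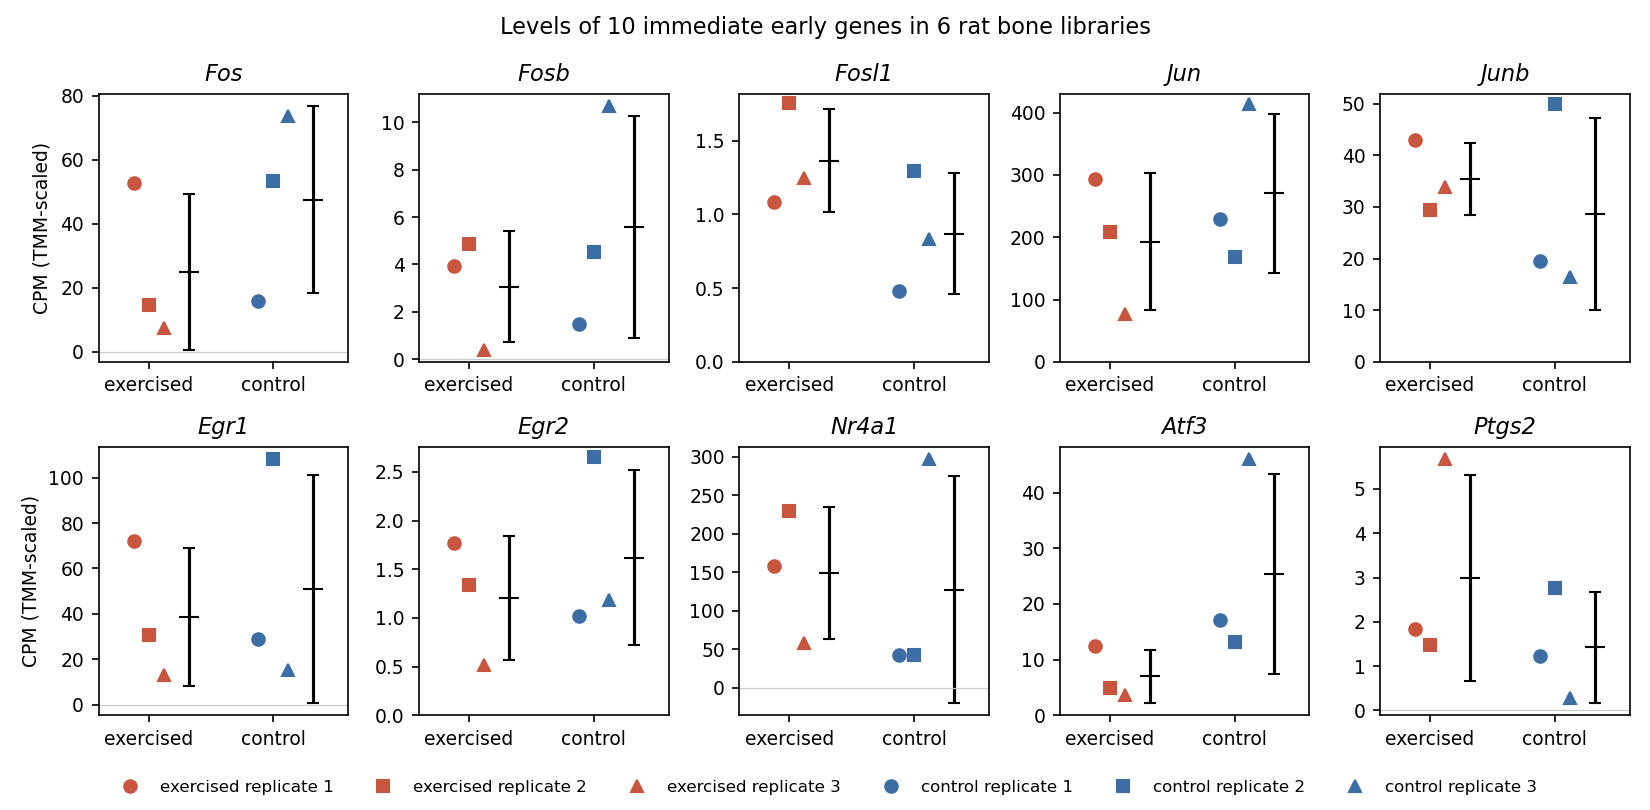
Levels of the 10 genes in CPM (vertical axes, linear, a separate scale for each gene) in 3 exercised (red) and 3 control (blue) libraries; marker shape gives the replicate number, and black bars give the mean and SD of the group. The groups overlapped for 9 of the 10 genes, and for Atf3 the 3 exercised libraries (3.63 to 12.4 CPM) sat below the 3 controls (13.1 to 46.1 CPM).

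Fos (ENSRNOG00000008015), the AP-1 subunit most used as a sign of recent stimulation, had 52.6, 14.8 and 7.44 CPM in exercised replicates 1, 2 and 3, against 15.9, 53.3 and 73.7 CPM in control replicates 1, 2 and 3. Its levels thus fell into high and low libraries within each group: exercised replicate 1 and control replicates 2 and 3 were high, and the other 3 libraries were low. The mean was 24.96 ± 24.3 CPM in exercised bone and 47.6 ± 29.3 CPM in controls (SD, n = 3 each). Exercised over control, the log2 difference was -0.93 (SE 0.84, edgeR adjusted p = 0.889), with a 95% interval of -2.94 to 1.08. That interval spans fold changes of 0.13 to 2.11, so a 2-fold rise was inside it. The difference depended on single libraries: it was -2.10 without exercised replicate 1 (unadjusted p = 0.0342, adjusted p = 0.795 by edgeR), -0.50 without exercised replicate 3 and -0.47 without control replicate 3. Without both of the last 2 it was -0.036. In the fit without exercised replicate 1, 393 of 14888 tested genes had an unadjusted p under 0.05 by edgeR.

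Fosb (ENSRNOG00000046667), a Fos relative whose shortened ΔFosB form promotes bone formation in mice, had 3.94, 4.84 and 0.397 CPM in exercised libraries, against 1.50, 4.54 and 10.7 CPM in controls. Exercised replicate 3 stood far below the rest, with 7 counts (exact 95% Poisson interval 2.81 to 14.4, counting error only). Over all 6 libraries Fosb ranged 26.9-fold, the widest range of the 10 genes. Fosb differed by -0.87 on the log2 scale (SE 1.00, edgeR adjusted p = 0.889). Without control replicate 3 that difference was 0.015, and without both ends of the first component it was 0.54.

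Fosl1 (ENSRNOG00000020552), which encodes Fra-1, an AP-1 subunit that drives bone matrix production in mice, had 1.09, 1.75 and 1.25 CPM in exercised libraries, against 0.477, 1.30 and 0.834 CPM in controls. These values rest on 16, 25 and 22 counts in exercised bone and 7, 22 and 12 in controls. Its groups overlapped only through control replicate 2. Of the 10 genes Fosl1 had the smallest spread within groups, a pooled SD of 0.49 on the log2 scale, which 52.1% of all tested genes reached or exceeded. Exercised over control, Fosl1 differed by 0.64 (SE 0.53, edgeR adjusted p = 0.889).

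Jun (ENSRNOG00000026293), the main partner of Fos in AP-1, had 294, 209 and 76.8 CPM in exercised libraries, against 230, 169 and 414 CPM in controls. The 2 extremes were exercised replicate 3 and control replicate 3, and the other 4 libraries lay between 169 and 294 CPM. Jun's log2 fold difference was -0.49 (SE 0.58, edgeR adjusted p = 0.89), and 0.34 without those 2 libraries.

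Junb (ENSRNOG00000042838), an AP-1 subunit needed for normal bone mass in mice, had 43.0, 29.5 and 33.8 CPM in exercised libraries, against 19.5, 50.0 and 16.4 CPM in controls. The exercised libraries were close together, 1.46-fold from lowest to highest, and lay inside the 3.05-fold range of the controls. The mean was 35.4 ± 6.9 CPM in exercised bone and 28.6 ± 18.6 CPM in controls (SD, n = 3 each), a log2 fold difference of 0.31 (SE 0.46, edgeR adjusted p = 0.904). Control replicate 2 was the highest of all 6; without it the difference was 0.98 (SE 0.29, adjusted p = 0.537), and without control replicate 3 it was 0.030.

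Atf3 (ENSRNOG00000003745), a stress-induced factor of the ATF/CREB family that can pair with Jun proteins, had 12.4, 4.91 and 3.63 CPM in exercised libraries, against 17.0, 13.1 and 46.1 CPM in controls. It was the only 1 of the 10 whose groups did not overlap, with every exercised library below every control; 4.01% of all tested genes had that order. In 0 of the 10 did every exercised library lie above every control (3.37% of all tested genes), and 7.37% of tested genes had no overlap in either direction. The gap between the groups was narrow, 12.4 CPM in exercised replicate 1 against 13.1 CPM in control replicate 2. Atf3 averaged 6.97 ± 4.72 CPM in exercised bone and 25.4 ± 18.0 CPM in controls (SD, n = 3 each). Its fitted log2 difference was -1.87 (SE 0.67), with a 95% interval of -3.48 to -0.25, an unadjusted p of 0.0296 and an adjusted p of 0.889 by edgeR. Group membership took 59.1% of the variance of its log2 CPM, against a median of 16.2% over all tested genes. Leaving out control replicate 3 moved the difference to -1.11, and leaving out both ends moved it to -0.80.

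Egr1 (ENSRNOG00000019422), a zinc finger factor induced by strain and growth factors, had 72.0, 30.5 and 13.1 CPM in exercised libraries, against 29.1, 108 and 15.3 CPM in controls. The highest library was control replicate 2 and the next was exercised replicate 1, so each group held 1 library well above its others. The mean was 38.5 ± 30.3 CPM in exercised bone and 50.9 ± 50.2 CPM in controls (SD, n = 3 each). Egr1 differed by -0.40 on the log2 scale (SE 0.87, edgeR adjusted p = 0.934), and by 0.79 without control replicate 2. Its difference was 0.012 without exercised replicate 3, -0.83 without control replicate 3 and -0.42 without both.

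Egr2 (ENSRNOG00000000640), its paralog, which restrains osteoclast formation in mouse cells, had 1.77, 1.33 and 0.511 CPM in exercised libraries, against 1.02, 2.65 and 1.18 CPM in controls. It nearly repeated the order of Egr1, at a level of 9 to 45 counts per library. Control replicate 2 was highest, exercised replicate 1 next and exercised replicate 3 lowest. Only control replicates 1 and 3, with 15 and 17 counts of Egr2, changed places. Egr2's log2 fold difference was -0.43 (SE 0.64, edgeR adjusted p = 0.902), and 0.12 without control replicate 2. Without exercised replicate 3 it was -0.065, without control replicate 3 it was -0.61, and without both it was -0.25.

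Nr4a1 (ENSRNOG00000007607), the orphan nuclear receptor Nur77, had 157, 229 and 58.4 CPM in exercised libraries, against 42.1, 42.3 and 297 CPM in controls. Control replicates 1 and 2 were nearly equal and lay below all 3 exercised libraries, whereas control replicate 3 was the highest of all. Over the 6 libraries the mean was 148 ± 86 CPM in exercised bone and 127 ± 147 CPM in controls (SD, n = 3 each). The log2 fold difference of 0.22 (SE 0.90, edgeR adjusted p = 0.963) changed sign or size with the libraries used. It was -0.32 without exercised replicate 2, -0.20 without control replicate 1 and -0.20 without control replicate 2. Without control replicate 3 it was 1.82 (SE 0.62, unadjusted p = 0.0273, adjusted p = 0.989), and without both ends it was 2.20 (SE 0.30, unadjusted p = 0.000633, adjusted p = 0.929). Neither passed the threshold after adjustment, and the second leaves 2 libraries in each group and was chosen after the values were seen. Without control replicate 3, 355 of 14961 tested genes had an unadjusted p under 0.05 by edgeR. Without both ends it was 637 of 14662.

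Ptgs2 (ENSRNOG00000002525), the inducible cyclooxygenase that starts prostaglandin synthesis, had 1.83, 1.47 and 5.68 CPM in exercised libraries, against 1.23, 2.77 and 0.278 CPM in controls. Its extremes were those of Jun turned round: exercised replicate 3 was highest, with 100 counts, and control replicate 3 lowest, with 4 counts (exact 95% Poisson interval 1.09 to 10.2, counting error only). Ptgs2 differed by 1.06 on the log2 scale (SE 0.90, edgeR adjusted p = 0.889). Without those 2 libraries the difference was -0.28.

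**Figure D2:**
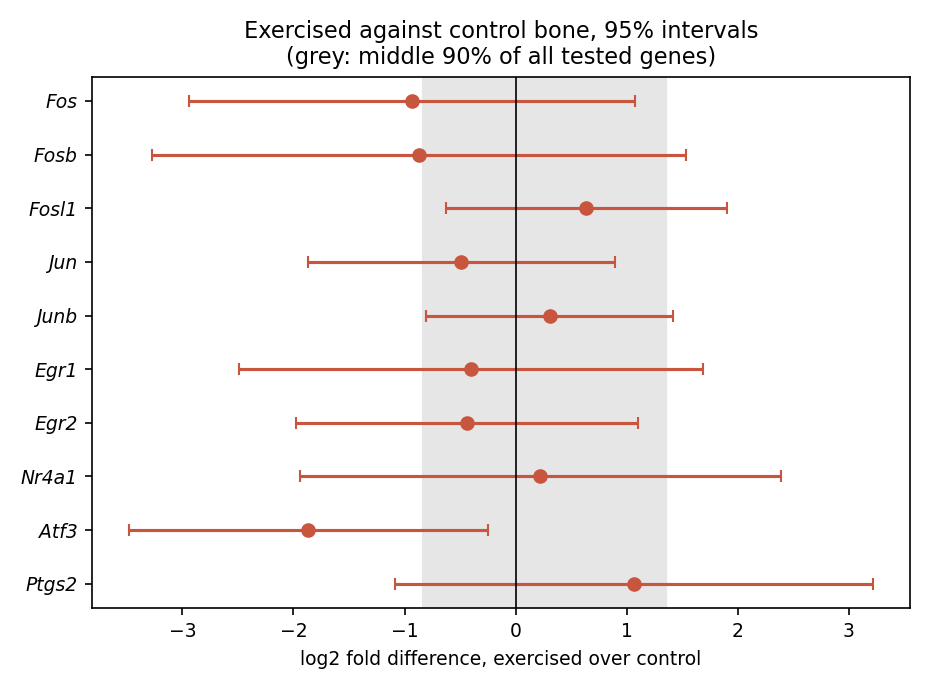
Log2 fold difference of exercised over control bone for the 10 genes (points) with 95% intervals from the edgeR fit (bars, not adjusted for multiple testing); the grey band holds the middle 90% of all tested genes, from -0.84 to 1.35. The interval of Atf3, -3.48 to -0.25, was the only 1 of the 10 to leave out 0, and its adjusted p was 0.889.

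The genes varied widely between animals of the same group. The pooled SD of log2 CPM within groups had a median of 1.08 over the 10 genes, against 0.51 over all 14495 tested genes. From lowest to highest library 8 of the 10 ranged more than 4-fold, against 31.98% of tested genes. Low counts widen such ranges, so the 6 genes that averaged 10 CPM or more (Fos, Jun, Junb, Egr1, Nr4a1 and Atf3) were also compared with the 9224 tested genes at that level. Their median SD was 1.11, against 0.43, and 5 of the 6 ranged more than 4-fold, against 25.2%. Nr4a1 and Egr1 had the largest SD of those 6, 1.36 and 1.33, which 9.93% and 10.2% of all tested genes reached or exceeded. Junb and Fosl1 were the steadiest of the 10. The share of variance between the groups had a median of 16.1% over the 10 genes and 16.2% over all tested genes.

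**Figure D3:**
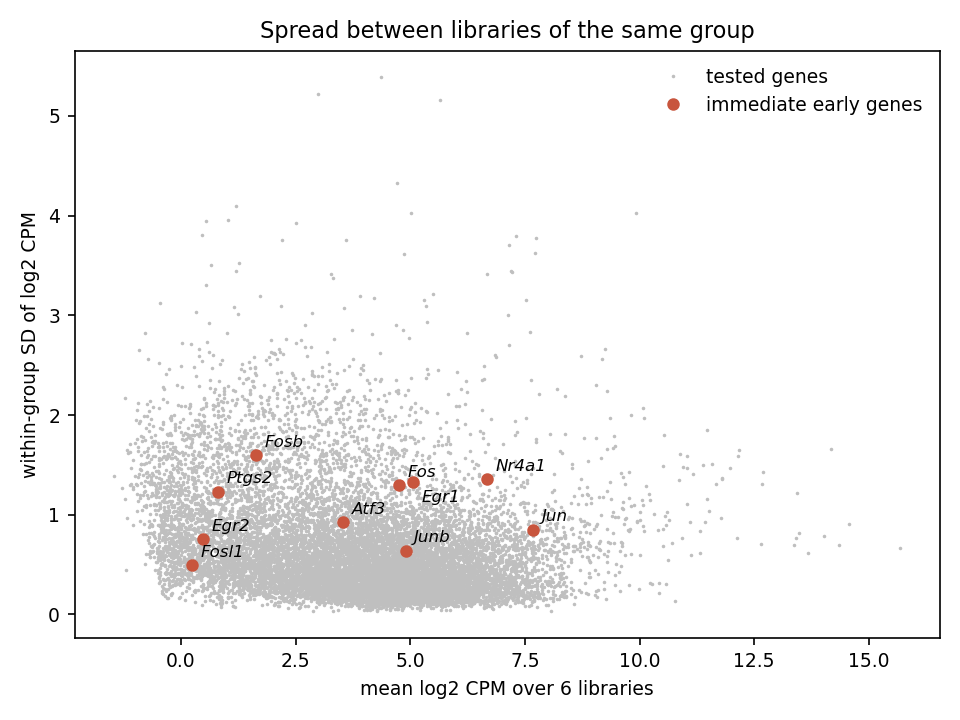
Pooled within-group SD of log2 CPM (vertical axis) against mean log2 CPM over the 6 libraries (horizontal axis) for all tested genes (grey) and the 10 immediate early genes (red). The genes other than Fosl1 lie above the median SD of 0.51, and Fosb is the highest at 1.59.

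Whether the genes were high together in single libraries was read from each gene's deviation from its own mean of log2 CPM over the 6 libraries. In exercised replicate 1 all 10 were above their own means (55.7% of all tested genes were), with a median of 0.48 (0.04 over all tested genes). With library-size scaling in place of TMM it was 9 of 10 (45.8% of all tested genes), and the counts in the other 5 libraries were the same. That scaling moved the median deviation of all tested genes to 0.24 in exercised replicate 3, 0.28 in control replicate 2 and -0.36 in control replicate 3. The median of the 10 became 0.42 in exercised replicate 1, -1.10 in exercised replicate 3, 0.98 in control replicate 2 and 0.13 in control replicate 3. None of the 10 was highest in exercised replicate 1, where only 6.22% of all tested genes were highest. The deviations of the 10 there ran from 0.05 for Fosl1 to 1.10 for Egr1. In control replicate 2 the genes above their means numbered 8 of 10 (50.4% of all tested genes), with Nr4a1 at -1.27 and Jun at -0.28 as the exceptions. Their median there was 0.66 (0.0038 over all tested genes), above that of exercised replicate 1 under both scalings.

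Low libraries were found in both groups as well. In exercised replicate 3 the median of the 10 was -1.23 (0.01 over all tested genes), and 6 of the 10 had their lowest level there: Fos, Fosb, Jun, Egr1, Egr2 and Atf3. That library held the lowest value of 31.3% of all tested genes. Ptgs2, Fosl1 and Junb were above their means in it. Control replicate 1 had 2 of 10 above their means, Jun and Atf3 (53.1% of all tested genes were), and a median of -0.49 (0.03 over all tested genes). Control replicate 3 was split: Fos, Fosb, Jun, Nr4a1 and Atf3 were highest there (5 of 10, against 25.4% of tested genes), and Ptgs2 and Junb were lowest there (30.6% of tested genes). With library size alone, Fos was highest in control replicate 2 instead and Egr1 lowest in control replicate 3.

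**Figure D4:**
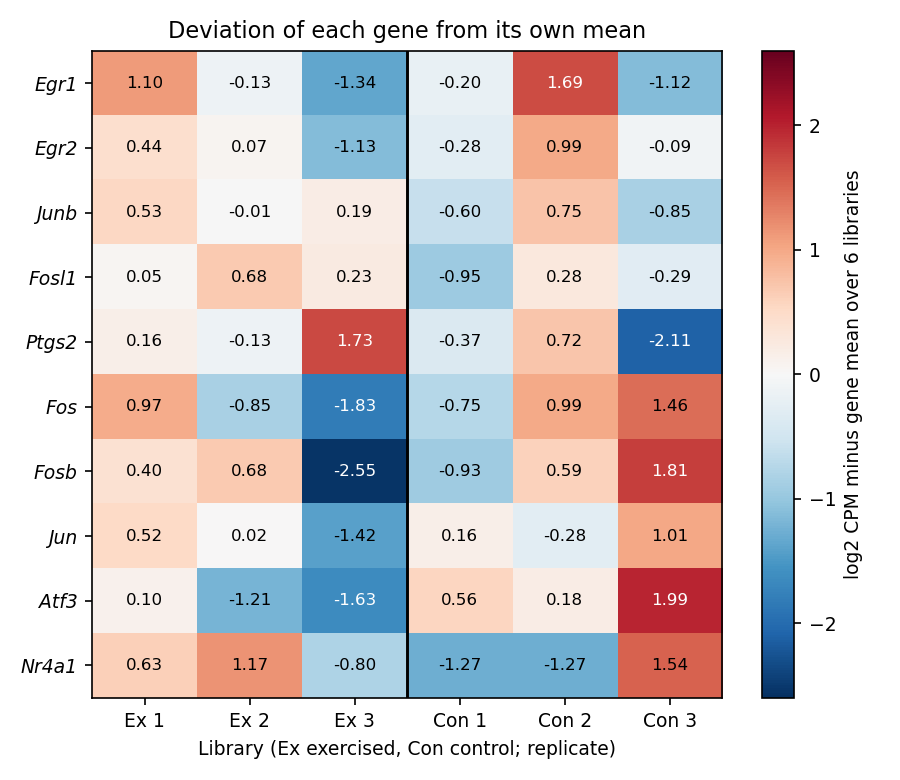
Deviation of each gene's log2 CPM from its own mean over the 6 libraries (color and printed value), with exercised libraries left and controls right of the line. Exercised replicate 1 is above the mean in all 10 genes, exercised replicate 3 is low in 7, and control replicate 3 is high for Fos, Fosb, Jun, Atf3 and Nr4a1 and low for the other 5.

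The 6 libraries form 15 pairs, and the number of pairs that 2 genes put in the same order measures how alike their courses were. By this count Egr1 and Egr2 were the most alike, with 14 of 15. By the root mean square difference of their log2 deviations, Fosl1 and Junb were closer (0.48) than Egr1 and Egr2 (0.59). That measure is also small where both genes vary little. Fosl1 and Junb had the smallest SD within groups of the 10, 0.49 and 0.64, and shared the order of 10 of 15. Fos and Atf3 shared 13, as did Junb and Ptgs2. Fos shared 12 with Fosb and with Jun, its relative and its AP-1 partner, and Jun shared 12 with Atf3. Fosb and Nr4a1 also shared 12, as did Junb and Egr1. At the other end Jun and Ptgs2 shared 2 and Atf3 and Ptgs2 shared 3. Over the 45 pairs of the 10 genes the median was 9, against 8 over all pairs of tested genes. In 17.8% of the 45, at least 12 of the 15 library pairs had the same order, close to the 15.2% of all gene pairs. In 4.44% at most 3 did, against 14.6%. These counts describe 6 libraries whose genes share the same first component, and no test was made on them.

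**Figure D5:**
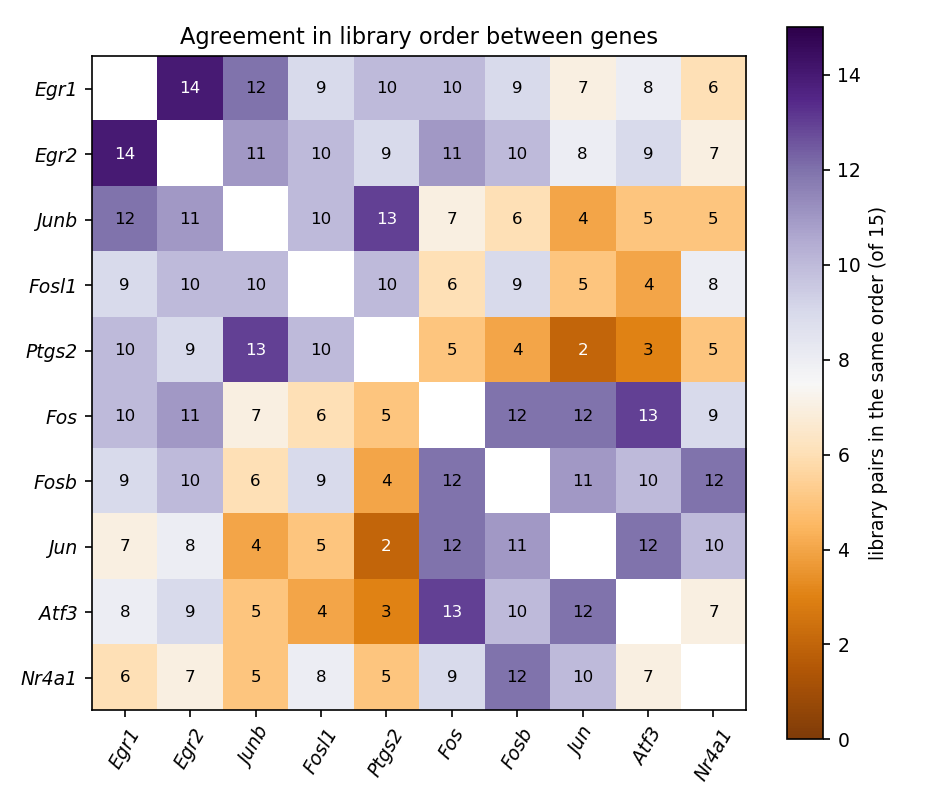
Number of library pairs, of 15, that each 2 genes put in the same order (color and printed value); 15 would be the same order throughout and 0 the reverse order. Egr1 and Egr2 share 14, the Fos, Fosb, Jun and Atf3 block shares 10 to 13, and Ptgs2 shares 2 to 5 with Fos, Fosb, Jun, Atf3 and Nr4a1.

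The 10 genes differed in how far they followed the first component. Of the 15 library pairs, Ptgs2 had 14 and Junb 12 in the order of the component's scores, and Jun had 14 and Atf3 13 in the reverse order. At least 12 in the order of the scores was found in 27.3% of tested genes, and at least 12 in the reverse order in 24.7%. The share of the 10 genes was not above that of all tested genes in either direction. Fosl1 (11 of 15 in the order of the scores), Egr1 (9), Egr2 (8), Nr4a1 (6), Fosb (5) and Fos (4) lay between. The top 10 genes by abundance made up the smallest share of counts in exercised replicate 3 and the largest in control replicate 3, the libraries where Jun and Ptgs2 had their extremes. The part of this spread in those values was not tested.

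Ratios of counts within a library do not depend on scaling. The pairs of genes below were chosen after their values were seen. The ratio of Fos to Egr1 was 0.731, 0.485 and 0.567 in exercised libraries, against 0.546, 0.492 and 4.82 in controls. In 5 libraries the ratio was therefore nearly constant, within 1.51-fold, while Egr1 itself ranged 8.25-fold over the same 5. Control replicate 3 alone stood apart, with Fos high and Egr1 low. When the 14494 other tested genes were ranked by how little their ratio to Fos varied over these 5 libraries, Egr1 was rank 1 and Egr2 rank 19. That rank depends on control replicate 3 being left out: over all 6 libraries Egr1 was rank 5806 and Egr2 rank 759. Jun at rank 118 and Atf3 at rank 122 were steadier against Fos over all 6, with Fosb at rank 1297 and Junb at rank 10225. With any other 1 library left out Egr1 was between rank 5941 and rank 10585.

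Other ratios moved far more. Nr4a1 to Egr1 was 2.18, 7.52 and 4.45 in exercised libraries, against 1.45, 0.39 and 19.4 in controls, a 49.8-fold range. Ptgs2 to Atf3 was 0.148, 0.30 and 1.56 in exercised libraries, against 0.072, 0.212 and 0.00603 in controls. That is a 259-fold range, and its lowest value rests on 4 counts of Ptgs2. Ptgs2 to Atf3 was above every control in exercised replicates 2 and 3 but not in exercised replicate 1, and the groups overlapped in both ratios.

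The middle course of the 10 genes, taken as the median deviation in each library, was 0.48, 0.0043 and -1.23 in exercised libraries, against -0.49, 0.66 and 0.46 in controls. Likeness to it was measured as the root mean square difference of centred log2 CPM over the 6 libraries. Among the 10, Egr2 was the closest to it (0.28) and Ptgs2 the farthest (1.61), with a median of 0.7895 over all tested genes. Jun (0.52), Fos (0.65) and Fosl1 (0.785) were also closer than that median. Junb (0.7916), Egr1 (0.82), Fosb (0.84), Atf3 (0.95) and Nr4a1 (1.085) were farther than it, as was Ptgs2. Each of the 10 went into the middle course, so their distances are not independent of it. Outside the list the closest were ENSRNOG00000023720 (0.18) and ENSRNOG00000053946 (0.22), for which the files give no name. ENSRNOG00000023720 had 1.70, 1.12 and 0.511 CPM in exercised libraries, against 1.09, 2.30 and 2.29 CPM in controls.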

How the data were processed

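RNA from bone of 3 exercised and 3 control rats was sequenced. Per the submitters' processing notes, the tools named are HISAT2 2.1.0, StringTie, fastp 0.19.5, CASAVA 1.8 and edgeR, without their roles. The genome builds named there are human and mouse builds, although the series is from rat. A rat build and annotation release are not stated there, and how reads were assigned to rat genes was not checked. The deposited values are headed FPKM but are whole numbers with unequal column totals, and they were used as deposited counts. Columns were matched to samples by library name, and 0 were left unmatched.

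Genes were kept by filterByExpr (minimum count 10, minimum total 15). The test was edgeR 4.0.16's quasi-likelihood test (R 4.3.3) with TMM scaling, no covariate and Benjamini-Hochberg adjustment over 14495 genes, at a threshold of 0.05. Standard errors are the absolute log2 fold difference divided by the square root of F. A prior count of 2 went into log2 CPM. Other fits used limma 3.58.1 (voom), DESeq2 1.42.0, other scalings, no filter, a replicate block and leaving out libraries. The functions were tested on simulated counts. The labels do not describe how animals relate, so p-values reflect only the variation among these 6 samples. With 3 against 3, an exact permutation test cannot go below 0.1.

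All 10 members were named by rule, with the 2 genes of closest course. The members and lists were chosen with earlier results of these data known. Lists of other immediate early genes, kinases, prostaglandin genes, heat shock genes and cell type markers were not analysed, because 0 identifiers matched a symbol. Sequences are from RefSeq (GRCr8).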

Additional observations from a re-analysis of the deposited data

How the results depend on the processing

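Of the 10 immediate early genes, 0 passed the threshold in each of the 14 alternative fits, and the adjusted p of single genes over these fits ranged from 0.537 (Junb and Atf3 without control replicate 2) to 1.00. An unadjusted p under 0.05 was reached by 1 of the 10 and by 247 of all genes; DESeq2 called 1 gene of the whole table, which was none of the 10, and every other fit called 0. Fos, Fosl1, Junb and Atf3 had the same sign in all 14, but Fos came to -0.036 without control replicate 3 and exercised replicate 3 and Junb to 0.030 without control replicate 3, far inside their standard errors. Leaving out 1 library at a time, they ran from -2.10 to -0.47 for Fos, 0.35 to 1.04 for Fosl1, 0.030 to 0.98 for Junb and -2.58 to -1.11 for Atf3. Without control replicate 3 and exercised replicate 3 together, an alternative chosen after seeing the data, the log2 fold difference was 0.54 for Fosb, 0.34 for Jun and -0.28 for Ptgs2, the reverse of the direction with all libraries. Leaving out 1 library at a time gave -1.45 to 0.015 for Fosb, -1.22 to 0.79 for Egr1, -0.82 to 0.12 for Egr2 and -0.32 to 1.82 for Nr4a1. The fits on the remaining libraries were made by the same rule on fewer samples; what sets these libraries apart was not tested. The number of genes highest or lowest in each library was the same with a prior count of 0.5. With library size alone, 4 genes were highest in control replicate 2 (3 with TMM) and 4 in control replicate 3 (5 with TMM), and 5 were lowest in exercised replicate 3 (6 with TMM) and 3 in control replicate 3 (2 with TMM). Libraries sharing replicate number 1, 2 or 3 had deviations from their group means that correlated over genes at 0.31, -0.41 and -0.49. With 3 libraries per group spread along 1 main component, these values cannot decide whether replicate numbers pair the libraries. With the replicate block 0 genes passed, 0 of the 10 among them, and 0 of the 10 had an unadjusted p under 0.05. Fosl1, Egr2 and Ptgs2 rest on 4 to 100 counts per library and Fosb on 7 to 154, and depth limits these genes most.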
